A study of Saccharomyces cerevisiae with 27 samples.

Results

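The vacuolar proteases of budding yeast and the small proteins that inhibit them were followed through replicative aging, the count of daughters a mother cell has produced. The 9 genes were matched by common name or systematic name on the arrays: the proteases PEP4 (YPL154C), PRB1 (YEL060C), PRC1 (YMR297W), CPS1 (YJL172W), LAP4 (YKL103C, now APE1 in RefSeq), APE3 (YBR286W) and DAP2 (YHR028C), and the inhibitors PAI3 (YMR174C) and PBI2 (YNL015W). They are 9 of 6388 systematic names on the arrays, each has 1 spot with a probe of its own, and all 9 are among the 5865 genes tested. The genes lie on different chromosomes (XVI, V, X, XI, II, VIII and XIV), except that PRC1 and PAI3 are both on XIII.

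The yeast vacuole is the counterpart of the animal lysosome, and its proteases break down proteins that arrive by autophagy, endocytosis or direct import. Most are made as inactive precursors. Proteinase A, the product of PEP4, starts a cascade in which it and proteinase B, the product of PRB1, cleave the precursors of the others. Cytosolic protein inhibitors bind each of these enzymes, and in growing yeast the proteases are known to be induced when nutrients run low.

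Each of the 27 arrays set RNA from Saccharomyces cerevisiae of the wild type W303 laboratory background at 1 replicative age against RNA from young control cells of matched conditions. The wording of the design does not settle whether mating type a is meant. There were 7 arrays at 1 generation (both channels young cells, so the background of the assay), 6 at 8 generations, 7 at 12 generations and 7 at 18-20 generations, with the dyes inverted on 11 of the 27. Per the labels' protocols, all groups were magnetically sorted and held in logarithmic growth, and their RNA was amplified before labelling. Values below are log2(aged/young), so 1 stands for a doubling. They are ratios within a gene and do not rank genes by abundance. Nothing in the labels says that arrays of an age came from separate cultures. The p-values therefore measure only how far the arrays spread, and this may be technical.

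Several arrays stood apart or alike over all genes. For 8-generation array 1 the direction could not be settled, because it has the same labelled dyes as arrays 2 and 3 but correlated with them at r = -0.64 and -0.58, while they correlated with each other at 0.82. The 18-20-generation arrays 1 to 4 correlated at 0.93 to 0.96 with each other, arrays 5 and 6 at 0.87, and the 12-generation arrays 4 and 5 at 0.92 and 6 and 7 at 0.86. The 12-generation arrays 2 and 3 correlated at 0.80 with each other and at 0.23 to 0.45 with the other 5. All 8-generation arrays and 18-20-generation array 7 form a set of different spot brightness from the other 20.

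Most of the protease genes and both inhibitors were higher in the oldest mothers, and DAP2 did not pass at any age. At 18-20 generations 8 of the 9 rose and 0 fell, against 32.9% of all genes tested that rose and 31.2% that fell. Their median was 0.88, against 0.01 over all genes. PRB1 rose 4.96-fold, PAI3 3.70-fold, PEP4 2.56-fold, APE3 1.86-fold, PBI2 1.84-fold, CPS1 1.70-fold, LAP4 1.55-fold and PRC1 1.21-fold. Leaving out certain single arrays ended the calls of LAP4 and PRC1, as given below. At 12 generations 5 rose, LAP4 fell and 3 did not pass, against a background of 23.3% up and 21.5% down, with a median of 0.54 against 0.02 over all genes. At 1 and at 8 generations 0 of 9 passed in limma, with 0% of all genes called at either age. The count of all genes at 8 generations rests on array 1: 272 genes rose and 163 fell with its sign turned, and 267 rose and 125 fell without it. At an unadjusted p under 0.05, 0 of 9 passed at 1 generation and 1 of 9 at 8 generations.

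**Figure D1:**
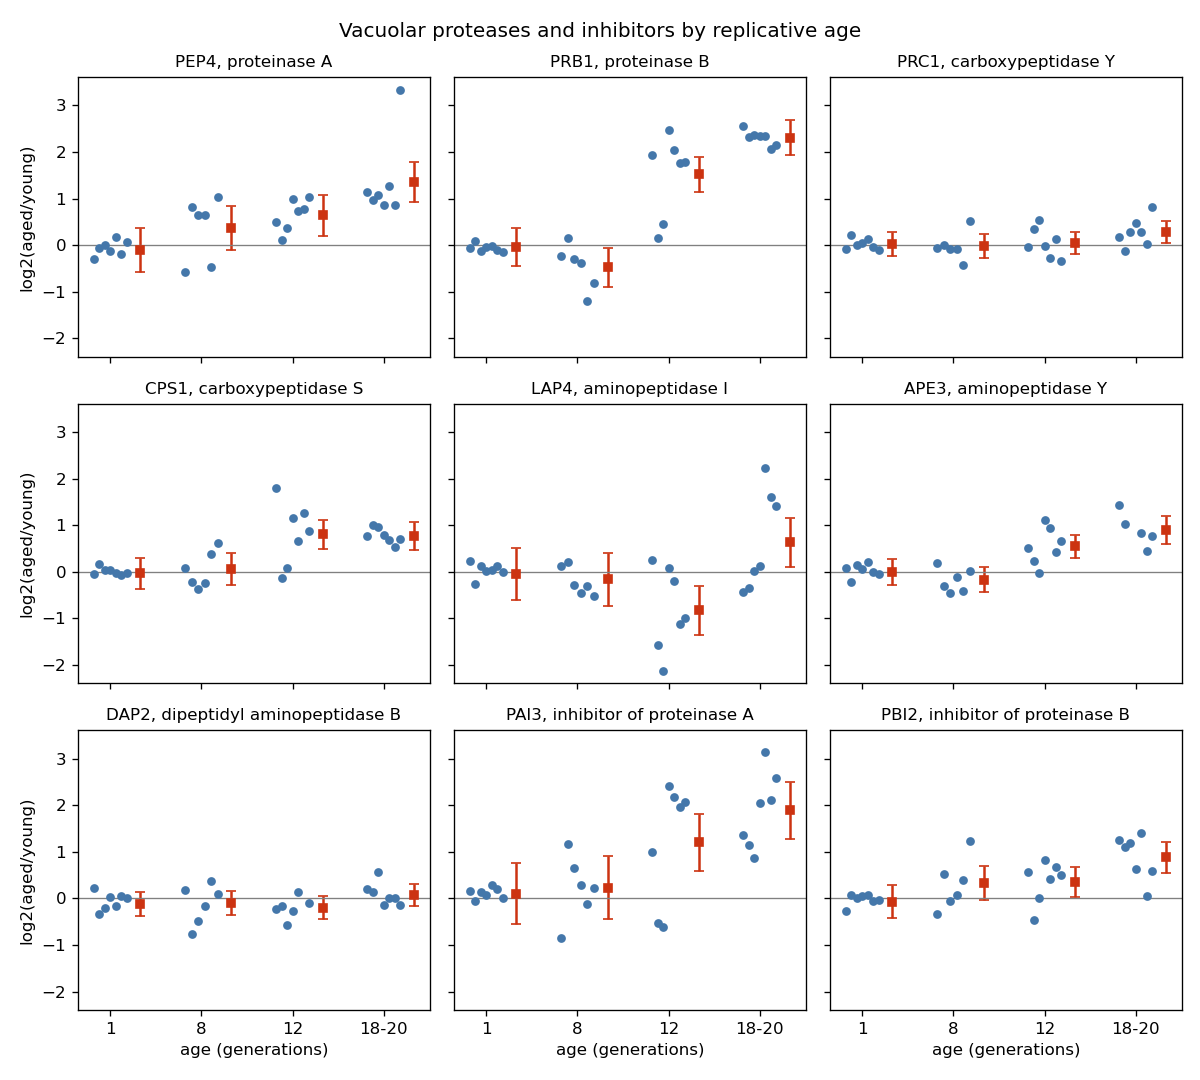
Log ratio of aged over young cells (log2, y axis) for each gene by age in generations (x axis). Blue points are single arrays, and red squares with bars are the fitted mean and its 95% interval. PRB1 lies near 0 at 1 generation and between 2.07 and 2.56 on every 18-20-generation array, while the fitted means of DAP2 lie between -0.20 and 0.08 at all 4 ages.

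PEP4 encodes proteinase A, the aspartyl protease that activates the other vacuolar precursors. Its values at 1 generation ran from -0.30 over a median of -0.07 to 0.17. At 12 generations the lowest array stood at 0.12, the median at 0.73 and the highest at 1.04. All 7 arrays of that age were above 0, and the 2 lowest were arrays 2 and 3, at 0.12 and 0.37. The change was 0.64 ± 0.21 (SE, n = 7, limma adjusted p = 0.0152), and it did not pass without array 7 (0.55, adjusted p = 0.0589), with alike arrays averaged (0.55, adjusted p = 0.108) or with median centring (0.42, adjusted p = 0.128). At 18-20 generations arrays 1 to 6 stood between 0.86 and 1.28 and array 7 at 3.33. No 18-20-generation value overlapped any 1-generation value. The change was 1.36 ± 0.21 (n = 7, adjusted p = 2.87e-06), and without array 7 it was 1.03. On that array 36% of the pixels of the PEP4 spot were saturated in the channel of the aged cells and 0% in that of the young cells. At that share the median pixel, which the ratio uses, is not saturated. Whether saturation or the brightness set of array 7 moves its PEP4 value was not tested.

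PRB1, the subtilisin-like serine protease proteinase B, had the largest change among the 9 genes at both late ages. Its 1-generation values lay between -0.15 and 0.08. At 12 generations arrays 2 and 3 stood at 0.15 and 0.45 and the other 5 between 1.77 and 2.47. The mean was 1.52 ± 0.19 (n = 7, adjusted p = 2.84e-07), or 2.87-fold, and 2.01 with arrays 2 and 3 left out, an alternative chosen after seeing the data. At 18-20 generations all 7 arrays fell in a narrow band, from 2.07 over a median of 2.34 to 2.56. The mean was 2.31 ± 0.19 (n = 7, adjusted p = 3e-11). Their SD was 0.160, against 0.867 at 12 generations. Saturated pixels in the channel of the aged cells were present on 18-20-generation arrays 1, 2, 4 and 7 (12%, 11%, 15% and 86% of the spot). They made up 66% of the spot on 12-generation array 1. The ratios use the median pixel of a spot. Saturation of most pixels, as on 18-20-generation array 7 and 12-generation array 1, caps the ratio. The smaller shares on 18-20-generation arrays 1, 2 and 4 leave the median pixel unsaturated.

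PRC1 encodes carboxypeptidase Y, the serine carboxypeptidase long used as the model cargo of vacuolar sorting. It stood apart from PEP4 and PRB1 by the small size of its change. Its 12-generation values ran from -0.35 over a median of -0.02 to 0.55, with 3 arrays above 0 and 4 below. The mean was 0.05, with a 95% interval from -0.19 to 0.29. At 18-20 generations the lowest array stood at -0.13, the median at 0.28 and the highest, array 7, at 0.83. PRC1 rose by 0.28 ± 0.12 (n = 7, adjusted p = 0.0382), but the call was lost without array 3 (0.27, adjusted p = 0.0618), array 4 (0.24, 0.111), array 5 (0.28, 0.0586) or array 7 (0.18, 0.171), and it was lost in 10 of 45 alternatives in all.

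CPS1, carboxypeptidase S, is a zinc carboxypeptidase that reaches the vacuole lumen through the multivesicular body. Its values lay between -0.08 and 0.17 at 1 generation. At 12 generations arrays 2 and 3 stood at -0.13 and 0.07 and the other 5 from 0.67 to 1.79. The change was 0.81 ± 0.15 (n = 7, adjusted p = 9.19e-05). At 18-20 generations the arrays ran from 0.53 over a median of 0.78 to 1.00, all above every 1-generation array, and the change was 0.77 ± 0.15 (n = 7, adjusted p = 7.01e-05). The difference of 18-20 minus 12 generations was -0.04, with a 95% interval from -0.47 to 0.40.

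APE3, the vacuolar aminopeptidase Y, rose at both late ages, at 12 generations less firmly. At 12 generations it ran from -0.03 over a median of 0.52 to 1.11, with 6 of 7 arrays above 0, and changed by 0.54 ± 0.12 (n = 7, adjusted p = 0.000736). Median centring in place of loess cut this to 0.14 (adjusted p = 0.441), and with the brightness set as a block it was 0.44 (adjusted p = 0.132). That block moves this age only through 18-20-generation array 7. At 18-20 generations its spot was marked and left out on arrays 3 and 4. The other 5 arrays stood at 1.44, 1.03, 0.82, 0.46 and 0.78, all above the highest 1-generation array at 0.20. The change was 0.90 ± 0.15 (n = 5, adjusted p = 6.47e-06). Saturated pixels in the channel of the aged cells made up 18% of the spot on array 1 and 55% on array 7, and 32% on 12-generation array 2.

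LAP4 encodes aminopeptidase I, which is imported straight from the cytosol by the cytoplasm-to-vacuole pathway, the selective relative of autophagy. It was the only 1 of the 9 that was called in opposite directions at 12 and at 18-20 generations, and at 18-20 generations its arrays spread most (SD 1.06). At 12 generations arrays 1 to 7 read 0.26, -1.56, -2.12, 0.07, -0.21, -1.12 and -0.98. Arrays 2, 3, 6 and 7 were low and arrays 1, 4 and 5 near 0. LAP4 fell 1.77-fold (-0.83 ± 0.26, n = 7, adjusted p = 0.00951). It did not pass without array 3 (-0.61, adjusted p = 0.0634) or without arrays 2 and 3 (-0.41, adjusted p = 0.229). Nor did it with the brightness set as a block (-0.43, adjusted p = 0.487), which moves this age only through 18-20-generation array 7. At 18-20 generations arrays 1 to 7 read -0.43, -0.35, 0.01, 0.12, 2.22, 1.60 and 1.41. The alike arrays 1 to 4 stood near 0, within -0.43 to 0.12, and arrays 5 to 7 stood at 1.41 or more, with the mean between the 2 sets. The rise of 0.64 ± 0.26 (n = 7, adjusted p = 0.0311) was lost without array 5 (0.39, adjusted p = 0.171), array 6 (0.43, 0.165) or array 7 (0.53, 0.0965), and with array weights, which weight arrays by how well they fit, it turned to -0.03 (adjusted p = 0.896).

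DAP2, dipeptidyl aminopeptidase B, is an enzyme of the vacuolar membrane and did not pass at any age. Its values at 12 generations, where its spot on array 6 was marked and left out, ran from -0.57 over a median of -0.20 to 0.15. At 18-20 generations they ran from -0.15 over a median of 0.00 to 0.57, overlapping the 1-generation range of -0.33 to 0.23. The mean was -0.20 at 12 generations (95% interval -0.45 to 0.06) and 0.08 at 18-20 generations (-0.16 to 0.31). The upper bound at 18-20 generations lies below the fitted changes of PEP4, PRB1, CPS1, LAP4, APE3, PAI3 and PBI2 at that age. It lies above that of PRC1 (0.28). Those changes have errors of their own, and differences of DAP2 from other members were not tested.

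**Figure D2:**
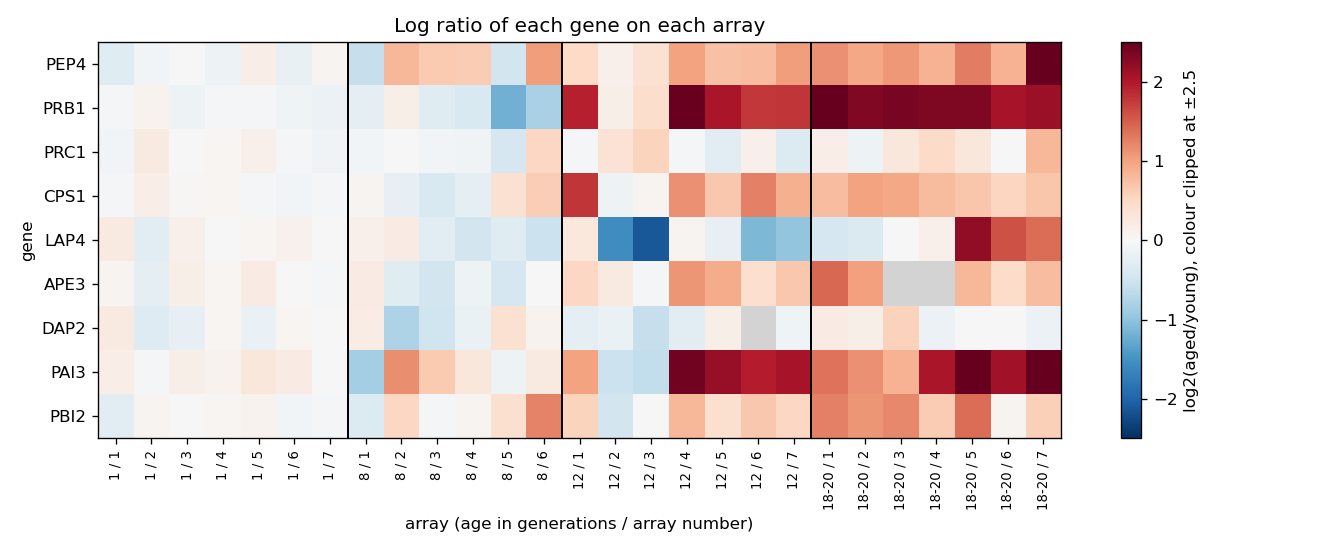
Log ratio of aged over young cells (colour, log2, clipped at 2.5 either way) of each gene (rows) on each array (columns, age in generations and array number). Grey cells are marked spots. PRB1 is high on all 7 18-20-generation arrays, LAP4 is high on 3 of them, and 12-generation arrays 2 and 3 lack the rise in PRB1, CPS1 and PAI3 that the other 5 show.

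PAI3 encodes the cytosolic inhibitor of proteinase A, a small protein that folds onto the active site of the enzyme. At 1 generation its arrays ran from -0.05 to 0.28. At 12 generations arrays 2 and 3 stood at -0.53 and -0.62, array 1 at 1.00 and arrays 4 to 7 between 1.95 and 2.42. PAI3 rose by 1.21 ± 0.30 (n = 7, adjusted p = 0.00171), the second largest change of the 9, and by 1.93 with arrays 2 and 3 left out. It did not pass with alike arrays averaged, an alternative that leaves 5 values at 12 generations (0.83, adjusted p = 0.0564). At 18-20 generations the lowest array stood at 0.88, the median at 2.04 and the highest at 3.14, with no overlap with 1 generation. The change was 1.89 ± 0.30 (n = 7, adjusted p = 3.61e-06).

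PBI2, the cytosolic inhibitor of proteinase B, which also takes part in vacuole fusion, had a smaller change. At 12 generations its arrays ran from -0.46 over a median of 0.51 to 0.83, with 6 of 7 above 0. The change of 0.35 ± 0.16 did not pass (n = 7, adjusted p = 0.0743). It passed without array 2 of that age (0.50, adjusted p = 0.0112) and without 8-generation array 6, which shares the estimate of spread (0.35, adjusted p = 0.0428). At 18-20 generations the arrays ran from 0.06, on array 6, over a median of 1.11 to 1.41. PBI2 rose by 0.88 ± 0.16 (n = 7, adjusted p = 2.27e-05), although array 6 overlapped the highest 1-generation array at 0.08.

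Each of the leading proteases was then set against its own inhibitor on the same array, as the difference of their log2 changes. PRB1 rose more than PBI2 on all 7 arrays of both late ages. At 12 generations the differences ran from 0.44 over a median of 1.28 to 1.64, with a mean of 1.15 ± 0.47 (SD, n = 7). At 18-20 generations they ran from 0.93 over 1.31 to 2.01, with a mean of 1.41 ± 0.36 (SD, n = 7). In an exact two-sided sign-flip permutation test each gave p = 0.0156, the smallest that 7 arrays allow, and 0.0312 adjusted over the 4 differences tested. At 1 generation the same difference lay between -0.15 and 0.22. At 8 generations, where it was not tested, it ran the other way, from -2.05 over -0.41 to 0.11, with a mean of -0.77 ± 0.85 (SD, n = 6) and 1 of 6 arrays above 0. The adjustment runs over all 4 differences. Fewer values at a late age raise the smallest p that the test allows at that age. Given the p-values of PEP4 minus PAI3, neither adjusted p-value could then pass, even with PRB1 above PBI2 on every array. Leaving out any 12- or 18-20-generation array, averaging alike arrays or leaving out saturated spots therefore ended both calls. This loss does not measure how firm the difference is. The mean stayed between 1.05 and 1.49 in these alternatives. With arrays scaled to a common spread the mean was 0.81 at 12 and 0.73 at 18-20 generations, and both calls held.

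PEP4 and PAI3 gave no such order. At 12 generations PEP4 minus PAI3 was 0.65 and 0.99 on arrays 2 and 3 and between -1.45 and -0.51 on the other 5, with a mean of -0.56 ± 1.00 (SD, n = 7). At 18-20 generations it ran from -1.86 over -0.21 to 0.76, and 2 of 7 arrays were above 0, with a mean of -0.53 ± 0.92 (SD, n = 7). The exact two-sided sign-flip permutation test gave p = 0.188 and 0.172, or 0.188 adjusted at both ages. PEP4 exceeded its inhibitor by 0.76 on array 7, where its own value stood apart. These are differences between changes and say nothing of which of 2 transcripts was more abundant.

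**Figure D3:**
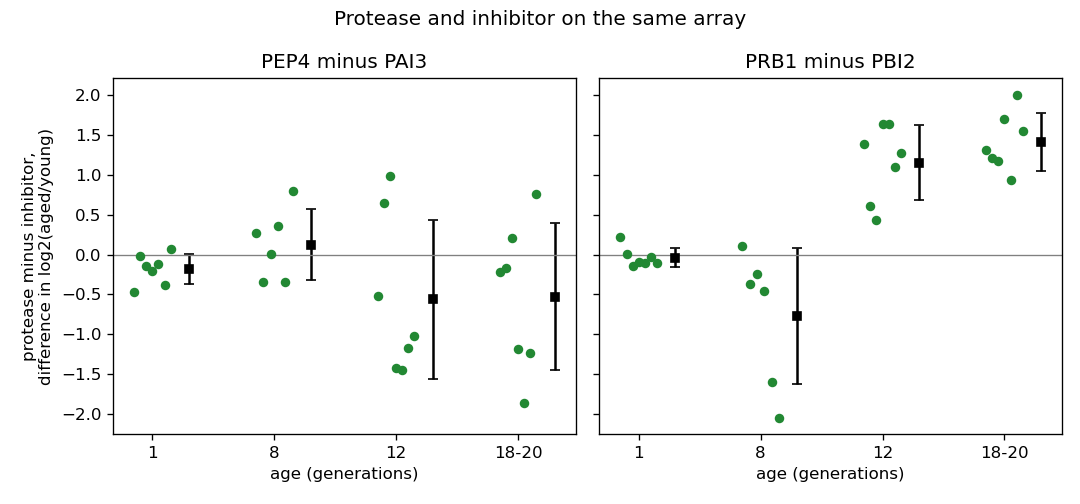
Difference in log2(aged/young) between a protease and its inhibitor on the same array (y axis) by age in generations (x axis). Green points are arrays and black squares with bars are the mean ± SD. PRB1 minus PBI2 is above 0 on all 7 arrays at 12 and all 7 at 18-20 generations, while PEP4 minus PAI3 lies on both sides of 0.

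At 8 generations no member passed, and the arrays spread widely around 0. PEP4 ran from -0.58 over 0.65 to 1.04, with arrays 1 and 5 below 0 and the other 4 above. PRB1 ran from -1.20 over -0.34 to 0.15, with 5 of 6 arrays below 0. Its change of -0.47 ± 0.20 had an unadjusted p of 0.0275 and an adjusted p of 0.312 in limma. PEP4 had a mean of 0.37 ± 0.23 (adjusted p = 0.524) and PBI2 of 0.33 ± 0.17 (adjusted p = 0.432). With the sign of array 1 turned, PEP4 stood at 0.55 (adjusted p = 0.12), PRB1 at -0.40 (0.253), PAI3 at 0.50 against 0.23 as labelled (0.358), and PBI2 at 0.44 (0.103). Without array 1 they stood at 0.54 (adjusted p = 0.184), -0.51 (0.174), 0.44 (0.503) and 0.45 (0.145). All 6 arrays of this age are of the other brightness set than the 1-generation arrays, so age and set cannot be told apart between these ages.

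Set against the 1-generation arrays, fewer members passed. At 8 minus 1 generations 0 of 9 passed in limma, with 0% of all genes called and 0 of 9 at an unadjusted p under 0.05. At 12 minus 1 generations PRB1 (1.56 ± 0.27, adjusted p = 0.000126), CPS1 (0.84 ± 0.22, 0.00544) and APE3 (0.55 ± 0.18, 0.0228) rose and 0 fell, against 14.2% up and 13.1% down over all genes. APE3 lost this call without 1-generation array 2 (0.50, adjusted p = 0.0656) or 12-generation array 4 (0.44, 0.0779), and with median centring (0.13, 0.671). PEP4 (0.74, adjusted p = 0.0722) and PAI3 (1.10, 0.0584) did not pass. Either passed when 12-generation array 2 was left out (0.86, adjusted p = 0.0451, and 1.45, adjusted p = 0.00869), and so did PBI2 (0.60, adjusted p = 0.0428, against 0.42 and 0.18). Other single arrays did the same for PEP4, which passed without 8-generation array 5 (0.78, adjusted p = 0.0456) or 18-20-generation array 7 (0.69, 0.0163), and for PAI3, which passed without 12-generation array 3 (1.36, 0.0104) or 18-20-generation array 3 (1.13, 0.0492).

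At 18-20 minus 1 generations 6 members rose and 0 fell, against 26.5% up and 25.3% down over all genes. They were PRB1 (2.35 ± 0.27, adjusted p = 7.09e-08), PAI3 (1.79 ± 0.43, 0.00114), PEP4 (1.46 ± 0.31, 0.000261), PBI2 (0.96 ± 0.23, 0.00108), APE3 (0.90 ± 0.19, 0.000364) and CPS1 (0.80 ± 0.22, 0.00316). LAP4 (0.69 ± 0.37, adjusted p = 0.122), PRC1 (0.25 ± 0.17, 0.211) and DAP2 (0.19 ± 0.17, 0.35) did not pass. LAP4 passed without 18-20-generation array 1 (0.93, adjusted p = 0.0396) and with alike arrays averaged (1.07, 0.0385). PRC1 and DAP2 each passed in 1 of 44 alternatives. For PRC1 it was loess within each printed block of spots (0.59, adjusted p = 0.00387), and for DAP2 array weights (0.37, 0.00491). With arrays scaled to a common spread CPS1 (0.38, adjusted p = 0.0928), APE3 (0.40, 0.0902) and PAI3 (0.72, 0.129) did not pass, and with alike arrays averaged CPS1 did not (0.74, adjusted p = 0.0534). In 5 of the 9 (PEP4, PRB1, CPS1, APE3 and PAI3) every 18-20-generation array was above every 1-generation array, as it was in 17.7% of all genes. The comparisons at 12 and at 18-20 generations share the 1-generation arrays.

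Between the late ages 2 members differed. LAP4 was higher at 18-20 than at 12 generations by 1.46 ± 0.36 (adjusted p = 0.00563) and PRB1 by 0.79 ± 0.26 (adjusted p = 0.0326), against 8.51% of all genes higher and 11.2% lower. For PRB1 the difference followed the low 12-generation arrays 2 and 3: it was 0.56 without array 2 (adjusted p = 0.0978), 0.59 without array 3 (0.102) and 0.30 without both (0.293). It was 0.15 with arrays scaled to a common spread (adjusted p = 0.906). It also missed the threshold without 18-20-generation array 1 (0.74, adjusted p = 0.0636), 2 (0.79, 0.0518), 3 (0.78, 0.0529) or 4 (0.79, 0.0509). The LAP4 difference stayed past the threshold whichever single array was left out, from 1.21 to 1.67. It did not pass without 12-generation arrays 2 and 3 (1.06, adjusted p = 0.0562). It also missed with arrays scaled to a common spread (1.06, adjusted p = 0.0843) and with array weights (0.69, 0.0541). PBI2 did not pass (0.53, adjusted p = 0.0946) but did without 18-20-generation array 6 (0.67, 0.0344).

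The genes around these proteases were mixed. Of 7 other vacuolar hydrolases measured (of 8 listed), 2 rose and 0 fell at 12 generations (against 23.3% and 21.5% of all genes), and 4 rose and 1 fell at 18-20 generations (against 32.9% and 31.2%). Their medians were -0.09 and 0.81. AMS1, the vacuolar alpha-mannosidase that shares the import route of LAP4, rose by 2.70 ± 0.22 at 18-20 generations (n = 4, adjusted p = 1.5e-10, from 1.86 to 3.12). PPN1, a vacuolar polyphosphatase, rose by 1.25 ± 0.14 (n = 7, adjusted p = 2.03e-08). ATG42, a carboxypeptidase related to PRC1, rose by 1.04 ± 0.15 (n = 7, adjusted p = 1.39e-06), with arrays from 0.44 to 1.49, while PRC1 itself stood at 0.28. The one that fell was PHO8, the vacuolar alkaline phosphatase (-0.54 ± 0.14, adjusted p = 0.00192), named after its value was seen.

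Of 15 genes of sorting and delivery to the vacuole measured (of 17 listed), 6 rose and 1 fell at 12 generations (against 23.3% and 21.5% of all genes) and 10 rose and 3 fell at 18-20 generations (against 32.9% and 31.2%). Their medians were 0.18 and 0.40. ATG19, the receptor that carries LAP4 and AMS1 to the vacuole, rose by 2.06 ± 0.17 at 18-20 generations (n = 7, adjusted p = 3.97e-11). It stood between 1.53 and 2.54 on all 7 arrays, including arrays 1 to 4, where LAP4 itself was near 0. PEP12, the syntaxin of the endosome, rose by 1.46 ± 0.17 (n = 7, adjusted p = 1.47e-08), and VPS34, the phosphatidylinositol 3-kinase, by 1.10 ± 0.14 (n = 7, adjusted p = 1.74e-07). The 3 that fell, named after their values were seen, were PEP5 (-0.61), VAM3 (-0.48) and VPS33 (-0.26, adjusted p = 0.0482). PEP5 and VPS33 encode subunits of the HOPS tethering complex, of which VPS41 (0.92, adjusted p = 7.9e-08) and VPS39 (0.40, adjusted p = 0.00333), also named after their values were seen, rose.

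Of 8 related inhibitors and peptidases measured (of 9 listed), 3 rose and 2 fell at 12 generations (against 23.3% and 21.5% of all genes) and 4 rose and 1 fell at 18-20 generations (against 32.9% and 31.2%). Their medians were 0.05 and 0.56. TFS1, the inhibitor of carboxypeptidase Y, rose by 2.24 ± 0.20 at 18-20 generations (n = 7, adjusted p = 1.81e-10), from 1.85 over a median of 2.04 to 2.80. At 12 generations it was at 0.24 ± 0.20 (adjusted p = 0.345). Its target PRC1 stood at 0.28 and 0.05 at those ages, a difference between the genes that was not tested. YHR138C, which resembles PBI2, rose by 2.23 ± 0.26 (n = 6, adjusted p = 3.57e-08), and YSP3, a putative protease related to PRB1, by 1.04 ± 0.14 (n = 7, adjusted p = 3.08e-07). KEX2, the Golgi processing protease, fell (-1.04 ± 0.21, n = 3, adjusted p = 0.000312) and was named after its value was seen.

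**Figure D4:**
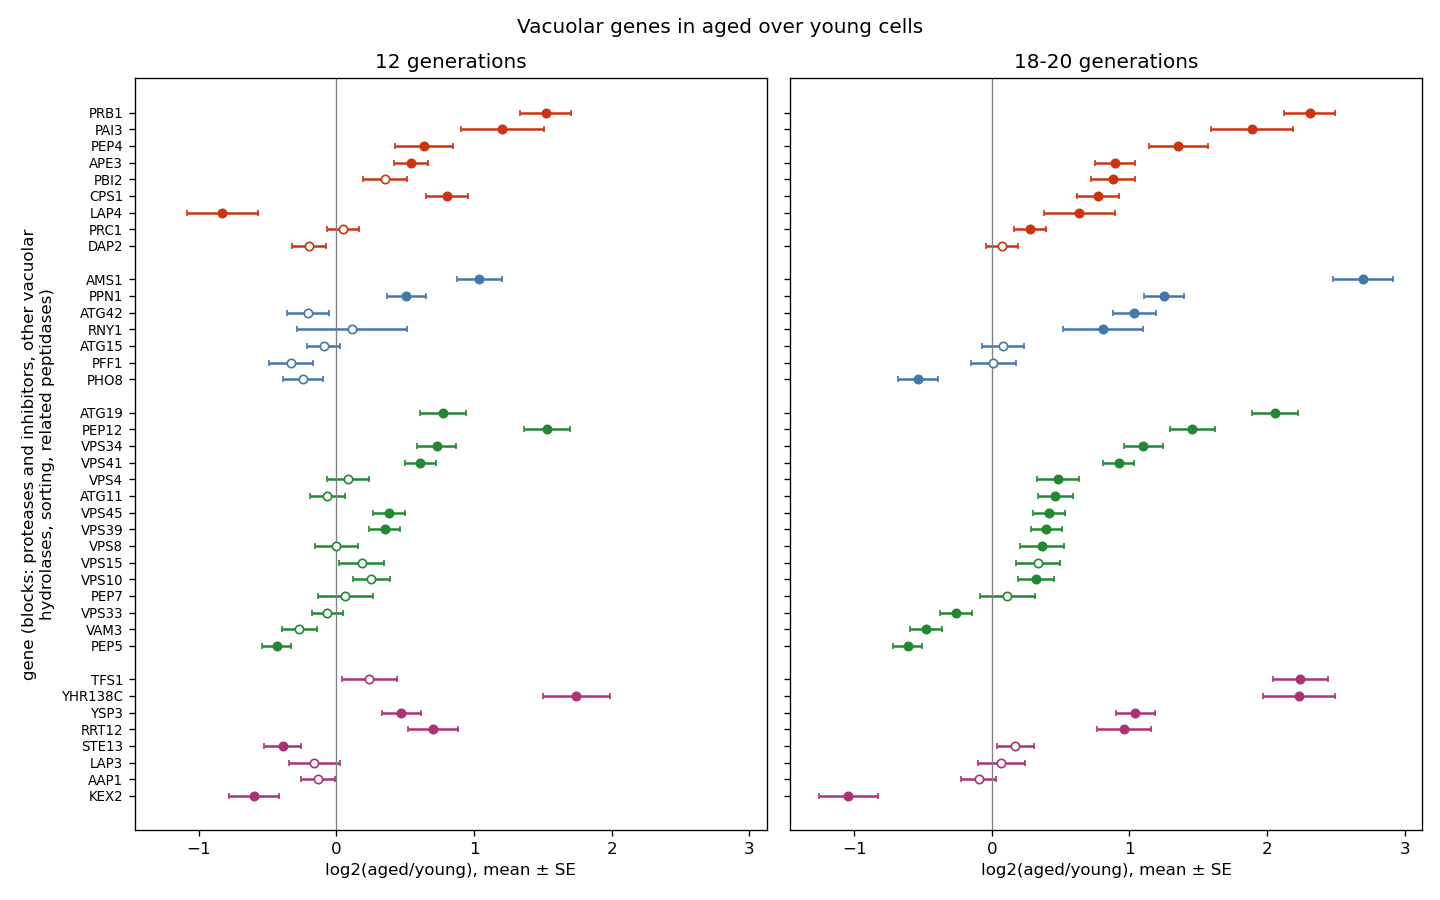
Fitted log2(aged/young) ± SE (x axis) for each gene (y axis) at 12 generations (left) and 18-20 generations (right), in 4 blocks: proteases and inhibitors (red), other vacuolar hydrolases (blue), sorting and delivery (green), related inhibitors and peptidases (purple). Filled points passed the threshold. Of the red points 8 are filled and right of 0 at 18-20 generations, and the green block lies on both sides.

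Markers of other states moved with the same ages. Over all genes 23.3% rose and 21.5% fell at 12 generations, and 32.9% and 31.2% at 18-20 generations. All 8 markers of stress or slowed growth (such as HSP12, CTT1 and ADH2) rose at 12 and at 18-20 generations, with medians of 2.30 and 2.84. The median of these markers per array ran from -0.06 to 0.03 at 1 generation, from 1.07 to 3.56 at 12 and from 2.48 to 3.39 at 18-20 generations. Of 8 genes of newborn daughter cells 2 rose and 5 fell at 12 generations and 2 rose and 6 fell at 18-20 generations (median -1.22, per array -1.52 to -0.95). The cells had been magnetically sorted, and how the sort changed the share of daughters was not tested. In RNA from many cells, fewer cells of a type and less RNA per cell cannot be told apart. Of 6 markers of a cells 3 rose and 0 fell, and all 4 of alpha cells fell, at both late ages. Their medians at 18-20 generations were 0.39 and -1.83, against a median absolute change of 0.54 over all genes. The part of any of these in the changes of the proteases was not tested.

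The genes whose values lay closest to each member over the arrays were mostly genes of other processes. Closeness is the root mean square difference of log2 values over the arrays that measured both, here 23 to 27, and it describes likeness of level only. PEP4 was closest to SCD5 (0.286) and SNA3 (0.383), PRB1 to RPN4 (0.307) and CIT1 (0.327), and PAI3 to ATG33 (0.471) and RLM1 (0.489). The medians over all genes were 1.06, 1.54 and 1.45, and the closest genes lie below these by selection. Nearer to PEP4, PRB1 and PAI3 than their nearest fellow member were 265, 153 and 59 genes outside the list. PBI2 was closest to MIM1 (0.28) and TRX2 (0.352), CPS1 to TAX4 (0.261) and PML39 (0.284), and APE3 to CRD1 (0.232) and MRX20 (0.238). LAP4 was closest to PCL5 (0.36) and CCC2 (0.528), PRC1 to SNU114 (0.238) and NUP159 (0.243), and DAP2 to NMA2 (0.182) and LCD1 (0.23). Among themselves, the closest pair of members was CPS1 and APE3 (0.416 over 25 arrays) and the farthest PRB1 and LAP4 (1.59 over 27 arrays). PRB1 was closer to PAI3, the inhibitor of the other proteinase (0.718), than to its own inhibitor PBI2 (1.10), and PEP4 was closer to PBI2 (0.64) than to PAI3 (0.789). These orders were not tested.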

How the data were processed

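Per the file headers, the deposited scanner files give each spot's median intensity and local background in Cy5 and Cy3, the percent of pixels above background, the percent saturated, and a mark for rejected spots. The authors' deposited value table was read as log2 ratios, with its normalization and centring not stated in the sources used here (column medians -0.06 to 0.10). It served only as an alternative, matched by array position, and 23 of its 27 columns matched their own array best. The others were 8-generation columns 1 and 3, each of which matched the scanner file of the other (r = 0.97 and 0.94), and 1-generation columns 3 and 4, likewise. The 8-generation pair includes array 1, whose direction is in doubt, and array 3, whose description lacks the dye inversion of its title and labels. Background was corrected by normexp (offset 50) and ratios were normalized by loess (span 0.3) in limma 3.58.1 under R 4.3.3. Marked spots, 174 to 1157 per array, were left out, and the labelled dyes set each ratio as aged over young. Median intensity lay between 292 and 4484.5 (red) and between 260 and 3927.5 (green) across arrays, and the number of arrays limits the precision.

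A gene was tested if measured on at least 3 arrays of every age. A mean per age and a dye term were fitted to all 27 arrays, with empirical Bayes moderation, two-sided tests, Benjamini-Hochberg adjustment over the 5865 genes and 0.05 as the threshold. The 4 protease minus inhibitor differences were tested by exact sign-flip permutation. The procedure was tested on simulated data. RefSeq (R64) gave symbols for 5849 of 6388 systematic names. Alternatives changed the background correction, normalization, filters, dye term, weights, blocks and arrays used. All 9 members are named, with up to 3 genes of each list by size of change at 18-20 generations and the 2 closest genes of each member. The members and lists were chosen with earlier results of these data known.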

Additional observations from a re-analysis of the deposited data

Results flagged for a closer look

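PEP4 on 18-20-generation array 7 stood at 3.33, while the next array of that age stood at 1.28, a gap that takes up most of the range of the group. Of the spot, 36% of pixels were saturated in the channel of the aged cells, which leaves its median pixel unsaturated. The array is of the other brightness set. PBI2 on 1-generation array 1 stood at -0.27, with the next array at -0.07. Of 36 groups of arrays examined for a single array lying apart, these 2 were found, and chance gives about 1 in 20. Their causes were not tested.

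Of the 9 genes, 2 changed by different amounts at the late ages in the direct test of the difference. Over all genes 8.51% were higher and 11.2% lower at 18-20 than at 12 generations, so the count is near the share of all genes. Both calls were lost in some alternatives, as given above. LAP4 was higher at 18-20 than at 12 generations by 1.46, with the 12-generation mean below 0 and the 18-20-generation mean above it, and PRB1 by 0.79, with both means above 0.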

How the results depend on the processing

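Over 45 alternatives, 3360 values of the members and of the protease minus inhibitor differences were recomputed. Of these 3240 kept their side of the threshold, 82 lost a call, 35 gained one and 3 turned sign with a call on at least 1 side. A further 98 turned sign with no call on either side and are among those that kept their side. PEP4, PRB1, CPS1, APE3, PAI3 and PBI2 at 18-20 generations and PRB1 and CPS1 at 12 generations were called under all 45. The share of all genes called under all 45 was not counted. In single alternatives 1217 to 2240 of 5865 genes rose at 18-20 generations. At 12 generations it was from 1022 of 5865 to 1450 of 5823. The array numbers carry no pairing (deviations of 39 same-numbered pairs correlated at -0.28 to 0.23, with 13 above 0.1), and with the replicate block 7 members changed at 18-20 generations instead of 8, PRC1 being lost (0.27, adjusted p = 0.0645), and 6 at 12 generations as before. Of all 5865 genes, 1899 rose and 1798 fell with that block at 18-20 generations, and 1322 and 1232 at 12 generations. With arrays scaled to a common spread, 3 members differed between 18-20 and 1 generations (CPS1, APE3 and PAI3 being lost) and 0 between 18-20 and 12 generations. Of all 5865 genes, 816 rose and 948 fell in the first of these comparisons, and 3 rose and 6 fell in the second. With array weights, 1 member (PEP4, 0.56, adjusted p = 0.0137) changed at 8 generations, 1 differed between 8 and 1 generations and 7 between 12 and 1 generations, and LAP4 at 18-20 generations turned to -0.0252. All-gene counts under these weights were 404 up and 351 down of 5865 at 8 generations. They were 118 and 88 in 8 minus 1, and 1284 and 1198 in 12 minus 1 generations. With the brightness set as a block, which moves other ages only through 18-20-generation array 7, PEP4 was called at 1 generation (1.13, adjusted p = 0.0219, 1 member) and in 8 minus 1 generations (-1.95, adjusted p = 0.0213, 1 member), while LAP4 (-0.43, adjusted p = 0.487) and APE3 (0.44, adjusted p = 0.132) lost their calls at 12 generations. Of all 5865 genes, this block called 105 up and 52 down at 1 generation, and 126 and 188 in 8 minus 1 generations. With alike arrays averaged, 1 member differed between 18-20 and 12 generations (145 of all 5649 genes rose and 207 fell), and PRB1 minus PBI2 was 1.05 (adjusted p = 0.25) at 12 and 1.46 (adjusted p = 0.5) at 18-20 generations. Without 12-generation arrays 2 and 3, 6 members differed between 12 and 1 generations, 0 between 18-20 and 12 generations, and PRB1 minus PBI2 was 1.41 at both ages (adjusted p = 0.0833 and 0.0625). Of all 5796 genes, 1018 rose and 899 fell in 12 minus 1, and 242 and 396 in 18-20 minus 12 generations. Without saturated spots, 1 member differed between 18-20 and 12 generations (479 of all 5781 genes rose and 665 fell), and PRB1 minus PBI2 was 1.12 (adjusted p = 0.125) and 1.37 (adjusted p = 0.25). With 1 array left out in turn, PRB1 minus PBI2 ran from 1.07 to 1.27 at 12 and from 1.31 to 1.49 at 18-20 generations (adjusted p over the 4 differences up to 0.0625), and 2 to 6 members differed between 12 and 1 generations and 1 to 3 between 18-20 and 12 generations. Over all genes, 662 to 929 rose and 611 to 838 fell in the first comparison, and 338 to 755 and 499 to 852 in the second. Median centring ended the calls of PEP4 (0.42, adjusted p = 0.128) and APE3 (0.14, adjusted p = 0.441) at 12 generations. With fewer arrays or spots at a late age PRB1 minus PBI2 could not pass, because the smallest p that the test allows is then larger. Apart from the smaller sets of arrays, the causes were not tested. The protease minus inhibitor differences have no value under changes to the linear model.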
